A study of Mus musculus with 8 samples.

Results

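FLT3/ITD N78 was compared with wild type FLT3 in Ba/F3 cells on the second of 2 array slides. The comparison takes every array of that slide, 4 of the 8 samples of the series. These are wild type FLT3, wild type FLT3 with Cxcl12, FLT3/ITD N78 and FLT3/ITD N78 with Cxcl12, 1 array each, so N78 can be set against wild type once without and once with Cxcl12. The other 4 samples, on the first slide, hold wild type FLT3 and another duplication, N51, and enter only where the text says so.

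Ba/F3 is a mouse pro-B cell line that grows on interleukin 3. FLT3 is the receptor for FLT3 ligand on early blood cells and a tyrosine kinase. An internal tandem duplication (ITD) in it, frequent in acute myeloid leukaemia, makes the kinase active without its ligand. Active FLT3/ITD is known to signal through STAT5, the MAP kinase pathway and PI3 kinase, and STAT5 induces Pim kinases, Socs genes and Bcl2l1. All cells were maintained in RPMI1640 with 10% FBS and 0.1 ng/ml mouse IL3, washed, and kept for 4 h in 0.5% BSA, with 100 ng/ml murine Cxcl12 or without it. Cxcl12 is the chemokine that binds Cxcr4. The labels name no IL3 in that incubation, and do not say what sets N78 apart from N51, how FLT3 was introduced, or whether a line is 1 clone. They also do not say that the 2 arrays of a line came from separate cultures, so p-values may reflect technical spread. Each p-value weighs a difference against the disagreement of the 2 pairs, taken mostly from other genes of like intensity. A gene whose own pairs disagree can therefore still pass, as Il10ra did at -3.13 without and -0.50 with Cxcl12.

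RNA was read on Agilent 1-colour mouse arrays. Levels are log2 intensities relative to the 75th percentile of the array, so that 0 is the level of that percentile and a value 1 higher is a 2-fold intensity. Between 50.7% and 55.0% of spots were well above background on the 4 arrays and none was saturated. The mouse Flt3 probe was dim, at -3.86 and -4.11 in wild type and -4.50 and -3.56 in N78, and since no source says whether it reads the FLT3 that was introduced, it is no check of the labels. Of 21 pro-B cell markers, 9 were above background on every second slide array and 11 on none of them. Among the latter were Pax5, Ebf1, Rag1, Rag2, Igll1 and Il7r, while Vpreb1, Cd79a and Cd79b were detected throughout. On both slides the arrays lay in the order wild type, ITD, wild type with Cxcl12, ITD with Cxcl12, so array position and group cannot be told apart.

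N78 cells differed from wild type cells at many genes, and more genes were strongly lower than strongly higher. Of 14129 genes tested, 4737 passed an adjusted p of 0.05 (limma), which is 33.5% of them. The higher genes made up 17.3% of those tested (2444 genes) and the lower ones 16.2% (2293 genes). The genes that passed and were also at least 2-fold apart in both pairs numbered 1053, or 7.45%, with 383 higher and 670 lower. The median difference over all genes was -0.01. The 2 pairs share no array, and their differences correlated across genes at 0.77 and had the same sign in 75.5% of genes. Genes are not independent replicates and both pairs come from the same 2 lines on 1 slide. The count that passed depends on the processing: it was 2245 with arrays centred on their medians, which raised the median of all genes to 0.17, and 1746 without the pairing by Cxcl12. With a background correction that 4 debris spots on 1 array upset, it was 38 (12 higher, 26 lower).

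**Figure D1:**
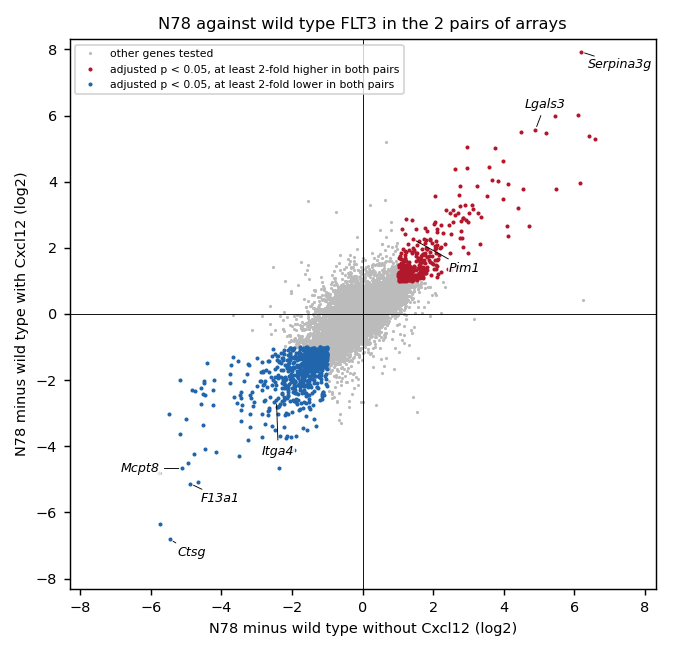
Difference between N78 and wild type FLT3 for each gene tested, without Cxcl12 on the horizontal axis and with Cxcl12 on the vertical axis, both in log2, 1 array against 1 array on each axis. Red and blue points passed adjusted p under 0.05 and were at least 2-fold apart in both pairs (383 higher, 670 lower), and they lie along the diagonal from Ctsg to Serpina3g.

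The genes with the highest N78 levels over wild type included Lgals3 and Serpina3g. Lgals3 encodes galectin-3, a lectin of myeloid cells (probe on chromosome 14, 48004398 to 48005214, mm9). It read -1.51 and -2.0 in wild type cells without and with Cxcl12, and 3.38 and 3.56 in N78 cells. It rose by 5.23 (SE 0.19, adjusted p = 9.43e-11), which is 37.5-fold. Serpina3g, a serine protease inhibitor of blood cells from a family with close copies, read -4.24 and -5.93 in wild type and 1.95 and 2.0 in N78 cells. It was 7.06 higher (SE 0.31), but only 1 of the 2 wild type arrays was above background, so the size of this difference is uncertain. It entered the test through the N78 arrays alone, so its p-value is not given. The same holds for Mrvi1, a substrate of cGMP-dependent kinase (5.95, SE 0.26), for Itih5 (4.16) and for Emc9, a subunit of the ER membrane complex (3.94).

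The remaining 9 of the 15 leading higher genes were well above background on no wild type array, and for these only a bound can be given. The bound sets the mean of the brighter side against the dimmest signal called above background on the arrays of the dimmer side. Arhgap15, a GTPase-activating protein for Rac, was at least 20.7-fold higher in N78 cells. Cytip, which binds cytohesin, was at least 18.3-fold higher, and Lpgat1, a phospholipid acyltransferase, at least 14.4-fold. The bounds for the others were 9.06-fold for Pglyrp2, 7.38-fold for the guanine nucleotide exchange factor Kalrn, 7.14-fold for the coagulation inhibitor Tfpi, 5.37-fold for the lymphocyte receptor Slamf1, 3.64-fold for Slain1 and 3.35-fold for Lrrn4. These 9 entered the test through the N78 arrays alone, so their p-values are not given.

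The 15 leading lower genes included Ctsg, F13a1, Mcpt8 and Clec7a, which are products of granulocytes, mast cells or macrophages, and genes of other kinds such as Dnah11 and Pygm. Ctsg encodes cathepsin G, a serine protease of granules. It read 5.49 and 4.78 in wild type cells and 0.03 and -2.03 in N78 cells, and fell by 6.14 (SE 0.24, adjusted p = 1.1e-10), or 70.4-fold. F13a1, the A subunit of coagulation factor XIII (chromosome 13, 36959214 to 36959273), read 4.97 and 4.67 in wild type and 0.08 and -0.46 in N78 cells. It fell by 5.01 (SE 0.16, adjusted p = 4.07e-11), or 32.2-fold. The leading genes were chosen by size and by the same direction in both pairs, so a gap between the 2 groups is no further support. Clec7a, the beta-glucan receptor dectin-1, read 0.89 and -0.39 in wild type and -3.79 and -5.48 in N78 cells, where 1 of 2 arrays was above background, and fell by 4.88 (SE 0.25, adjusted p = 3.68e-09). Ank3, which encodes ankyrin G, fell by 4.16 (SE 0.22), and the retinaldehyde dehydrogenase Aldh1a1 by 3.93 (SE 0.27).

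Another 8 of the 15 leading lower genes were above background on no N78 array. Dnah11, an axonemal dynein heavy chain, was at least 34.5-fold lower in N78 cells and read 0.33 and 0.91 in wild type. Pygm, the muscle glycogen phosphorylase, was at least 12.5-fold lower. The bounds were 7.88-fold for AU018091, 6.15-fold for Aldh1a7, a close relative of Aldh1a1, 5.97-fold for 2900006A17Rik, 4.03-fold for Prickle2, 4.01-fold for the long noncoding RNA Redrum and 2.57-fold for Usp17le, a member of a deubiquitinase family with close copies. These 8 entered the test through the wild type arrays alone, so their p-values are not given either.

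**Figure D2:**
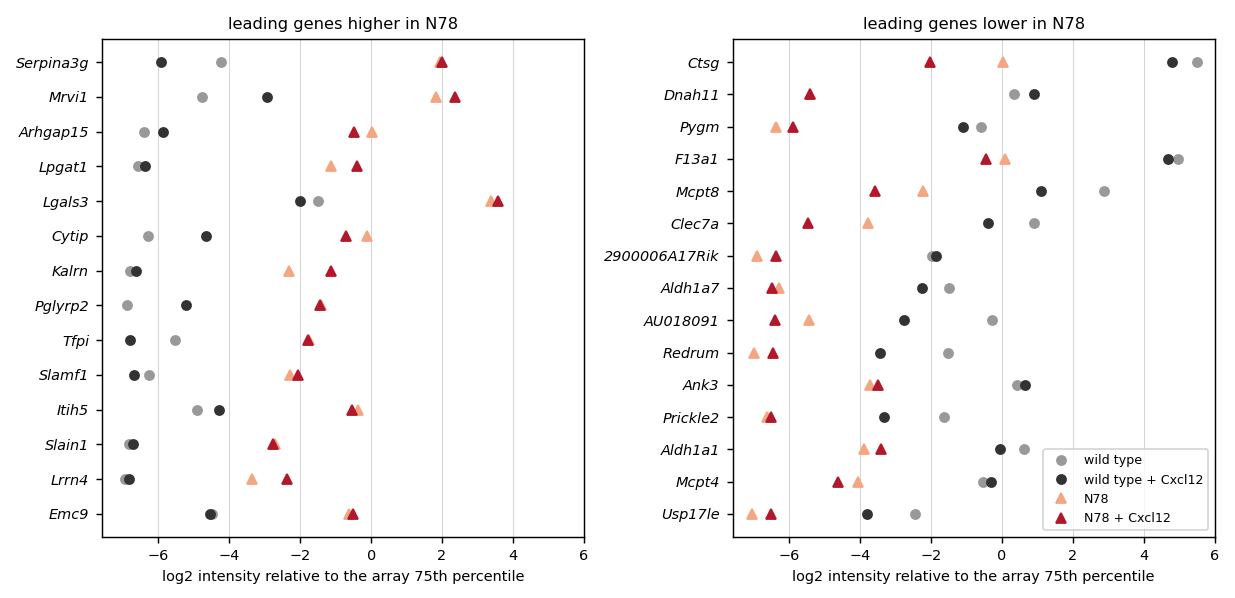
Levels of the leading raised (left) and lowered (right) genes named in the text on each second slide array, in log2 intensity relative to the array 75th percentile; grey and black circles are wild type FLT3 without and with Cxcl12, light and dark red triangles N78 without and with Cxcl12. Every N78 point lies on one side of both wild type points, as for Lgals3 (3.38 and 3.56 against -1.51 and -2.0). The genes were chosen by the size and direction of their difference, so this gap is no further support. Many of the values near the left edge are not above background.

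A set of proteases encoded side by side fell together. A stretch of 318 kb on chromosome 14 (mm9) holds the mast cell chymases, cathepsin G and the granzymes, a family of serine proteases stored in granules. Its ends were set at the outermost members that passed, Cma1 and Gzmb, so the fall of these 2 is no support. The array has probes for 15 of its genes, and 6 could be tested: Cma1, Cma2, Mcpt4, Mcpt8, Ctsg and Gzmb. All 6 fell, where 16.2% of all genes tested did. Cma2 and Mcpt4 entered the test through the wild type arrays alone, where they are high, so their direction is no support, and the other 4 were above background on all 4 arrays. The others, such as Mcpt1, Mcpt2 and Gzmc, did not pass the filter on dim probes. The probes are shown because members of this family resemble each other. These are the first 30 of the 60 bases of each probe, all in lower case because no part is singled out:
Cma1: ataagatcttgagggagaattaactctgga
Cma2: agtagtgaaaagcctgacctgcgtgcaatc
Mcpt4: tgaaagatgaattctgtgatgatggactgt
Mcpt8: gacatcgtaatgacagcagctcactgtaat
Ctsg: gacgctttgcaccaagatatcagagacctg
Gzmb: ccccgagaatgttatctaatgctagtcatc
No 2 of the 6 full probes share a run of more than 8 bases, which compares the probes with each other only, and whether a probe matches the transcript of another member was not tested. The probes lie at 56560454 to 56560513 for Cma1, 56592658 to 56592716 for Cma2, 56678589 to 56678648 for Mcpt4, 56702300 to 56702674 for Mcpt8, 56718795 to 56718854 for Ctsg and 56877916 to 56877975 for Gzmb.

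Mcpt8, a basophil protease, read 2.88 and 1.1 in wild type and -2.22 and -3.57 in N78 cells. It fell by 4.89 (SE 0.20, adjusted p = 1.87e-10), which is 29.6-fold. Cma1, a chymase, read 7.61 and 7.24 in wild type and 4.35 and 3.45 in N78 cells and fell by 3.52 (SE 0.15, adjusted p = 4.17e-10). N78 arrays thus still held Cma1 far above background. Gzmb, granzyme B of cytotoxic and mast cells, read 0.79 and 1.54 in wild type and -1.78 and -1.85 in N78 cells and fell by 2.98 (SE 0.21, adjusted p = 2e-07). Mcpt4 fell by 3.91, with 1 of 2 N78 arrays above background. Cma2 was at least 7.11-fold lower.

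The loss extended to most detected mast cell and basophil markers. Of the 20 in the list, 11 were tested, 8 fell and none rose, where 16.2% of all genes tested fell and 17.3% rose. The median difference of the 11 was -1.80 against -0.01 over all genes tested. Cma2 and Mcpt4, which entered the test through the wild type arrays alone, are among the 8, and their direction is no support. Cd200r3, a basophil receptor, fell by 2.28 (SE 0.22). Cpa3, the mast cell carboxypeptidase, fell by 1.80 (SE 0.27); it was chosen after its values were seen. Fcer1a, the IgE receptor chain, was at -0.35, Prss34 at -0.23 and Mitf at 0.37, and none passed. The summed intensity of the list was 260 and 207 times the array 75th percentile in wild type cells and 52.6 and 46.5 times in N78 cells. Most of the wild type sums is Cma1 alone, at 7.61 and 7.24 in log2. Of its 20 genes, 8 were above background on no array, among them Kit, Tpsab1, Tpsb2, Mcpt1 and Mcpt2. In RNA from whole cultures, fewer cells of a type and less RNA per cell cannot be told apart.

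Markers of other myeloid cells moved in both directions. Their counts stand beside 17.3% of all genes tested that rose and 16.2% that fell. Of 10 tested monocyte and macrophage markers, 3 rose and 2 fell, with a median of -0.35. Lyz2, a lysozyme of myeloid cells, rose by 2.88 (SE 0.21, adjusted p = 2.64e-07), from -2.43 and -2.91 to 0.28 and 0.14. Lyz1, its close copy, was at least 3.77-fold higher. Fcgr3, an Fc receptor, rose by 0.64, while Adgre1, a surface receptor of macrophages, fell by 1.33 (SE 0.17). Of 5 tested neutrophil and granule genes, S100a9 (2.11, with 1 of 2 wild type arrays above background) and Mpo rose and Ctsg and Chil3 fell. Mpo, myeloperoxidase, was high in both lines without Cxcl12 (2.88 in wild type, 2.95 in N78) and lower in both with it (-0.23 and 0.87), and its difference was 0.59 (SE 0.21, adjusted p = 0.0426). It turned to -0.26 without the second slide wild type array with Cxcl12. Of 4 tested eosinophil genes, Epx rose by 0.48 and Prg2 (-0.69) and Ear6 (-2.06, with 1 of 2 N78 arrays above background) fell. With an array left out, Epx turned to -0.21 or -0.29 and Prg2 to 0.051. The summed intensities ran from 35.3 to 58.5 in wild type and 7.30 to 13.9 in N78 cells for neutrophil genes, and from 29.4 to 30.1 against 18.3 to 22.0 for monocyte genes. Most of the wild type neutrophil sums is Ctsg alone, at 5.49 and 4.78 in log2 against 0.03 and -2.03 in N78 cells. Most of the wild type monocyte sums is Adgre1, at 4.15 and 4.35 against 3.12 and 2.71. These sums therefore do not show a fall of either list as a whole. For eosinophil genes they were 19.9 and 3.85 in wild type and 18.5 and 3.31 in N78 cells, so those followed Cxcl12 more than FLT3.

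Lymphoid and erythroid markers showed no common direction. Here too 17.3% of all genes tested rose and 16.2% fell. Of 10 tested pro-B cell markers, Cd79b, a chain of the B cell receptor, rose by 0.59 (SE 0.17), the leukocyte antigen Ptprc fell by 0.53 (SE 0.15) and 8 did not pass, with a median of 0.17 that changed sign under 3 of 22 alternatives. Of 8 tested T and NK cell markers, 2 rose and Gzmb fell, with a median of 0.02 that changed sign under 5 of 22 alternatives. Nkg7, a granule membrane protein of cytotoxic cells, rose by 2.45 (SE 0.21, adjusted p = 1.36e-06), from -2.28 and -2.62 to 0.21 and -0.21. Lat, an adaptor of T cell and mast cell signalling, rose by 1.98 (SE 0.19). Of 10 tested erythroid and megakaryocyte genes, 4 rose and 2 fell, with a median of 0.60. The transferrin receptor Tfrc rose by 1.11 (SE 0.16) and the platelet glycoprotein Gp9 by 0.89 (SE 0.20). Epor, the erythropoietin receptor, fell by 1.02 (SE 0.17), and Hba-a1, whose copies share sequence, by 1.26 (SE 0.28). Hba-a1 was at -0.47 in the pair without Cxcl12 and -2.05 in the pair with it. Summed intensities of the pro-B list were 25.6 to 26.3 in wild type and 21.8 to 22.9 in N78 cells, those of the T and NK list 3.54 to 4.53 and 4.01 to 4.50, and those of the erythroid list 25.9 to 36.5 and 33.9 to 45.1.

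**Figure D3:**
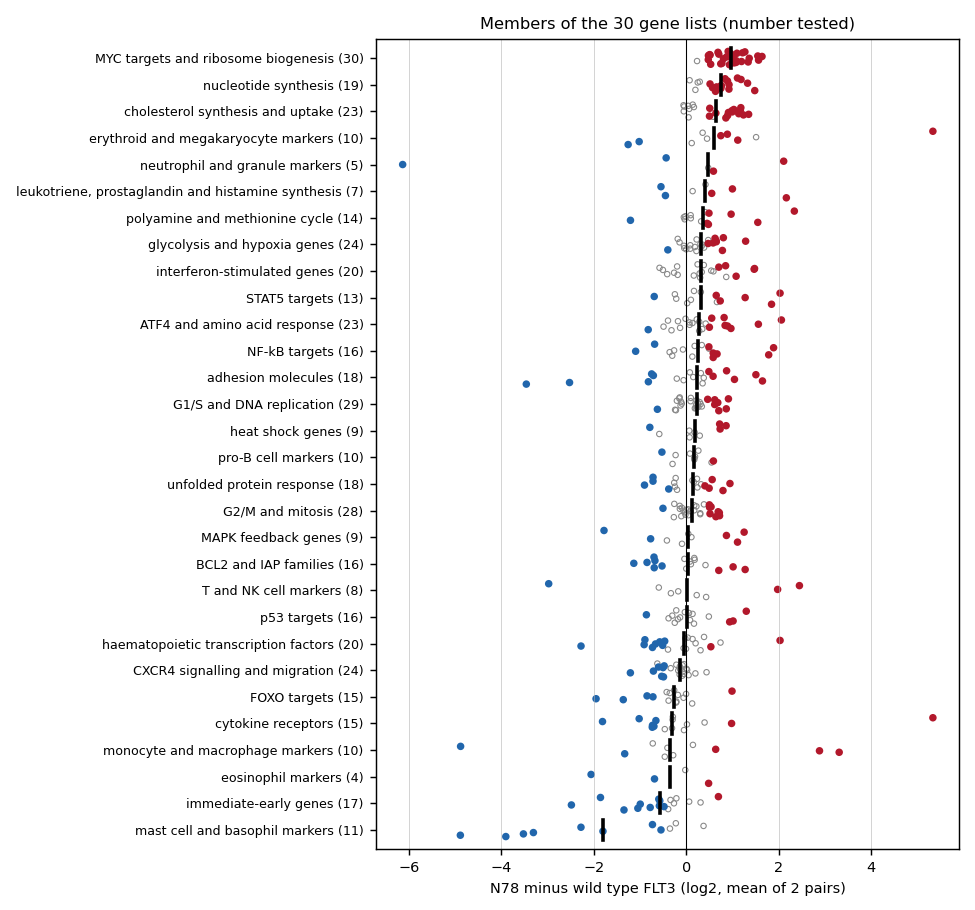
Difference between N78 and wild type FLT3 (log2, mean of the 2 pairs) for each tested member of the 30 gene lists, with the number tested after each name. Filled red and blue points passed adjusted p under 0.05 (limma), open points did not, and black bars are list medians, from -1.80 for mast cell and basophil markers to 0.97 for MYC targets and ribosome biogenesis.

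Some STAT5 target genes were raised. Of 13 tested, 5 rose, 1 fell and 7 did not pass, with a median of 0.31, where 17.3% of all genes tested rose and 16.2% fell. Pim1, a survival kinase (chromosome 17, 29630740 to 29630799), read -1.03 and -1.66 in wild type and 0.40 and 0.61 in N78 cells and rose by 1.84 (SE 0.22, adjusted p = 2.75e-05), or 3.59-fold. Id1, which blocks DNA binding by basic helix-loop-helix factors, read -0.25 and -1.49 in wild type and 0.38 and 1.94 in N78 cells, and its rise was 2.03 (SE 0.40, adjusted p = 0.00126). The gap between the lines was thus wider with Cxcl12. The survival gene Bcl2l1 rose by 1.27 (SE 0.18), the feedback inhibitor Socs1 by 0.73 (SE 0.22) and cyclin D2 (Ccnd2) by 0.65 (SE 0.15). Mcl1, another survival gene, fell by 0.69 (SE 0.14). Cish, a feedback inhibitor of STAT5, read 1.55 and -0.41 in wild type and 1.37 and 1.1 in N78 cells, so that N78 was higher in 1 of 2 pairs and the difference of 0.66 (SE 0.28, adjusted p = 0.0766) did not pass. Socs2 (0.10), Socs3 (-0.22), Pim2 (0.02) and Cdkn1a (0.17) did not pass either.

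Both chains of the IL3 receptor were lower in N78 cells. Of 15 tested cytokine receptor genes, 2 rose and 6 fell, with a median of -0.31, beside 17.3% and 16.2% of all genes tested. Csf2rb, the shared beta chain of the IL3, IL5 and GM-CSF receptors, read 7.63 and 8.16 in wild type and 6.91 and 7.41 in N78 cells and fell by 0.74 (SE 0.13, adjusted p = 0.000539). Il3ra, the alpha chain, read 3.42 and 3.30 against 2.58 and 2.67 and fell by 0.73 (SE 0.16, adjusted p = 0.00225); it was chosen after its values were seen. Il2rg, the common gamma chain, rose by 0.98 (SE 0.18). Il10ra fell by 1.81 (SE 0.48), with 1 of 2 N78 arrays above background.

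Immediate-early genes, which growth factors and chemokines induce within minutes, were mostly lower in N78 cells. Of 17 tested, 10 fell and 1 rose, with a median of -0.57, against 16.2% and 17.3% of all genes tested. Egr2 read -0.51 without and 4.11 with Cxcl12 in wild type, and -2.76 and 1.38 in N78 cells. It was thus far higher with Cxcl12 in both lines and lower in N78 in both pairs, and fell by 2.49 (SE 0.18, adjusted p = 2.77e-07), or 5.61-fold. Fos read -0.13 and 1.94 in wild type and -2.08 and 1.18 in N78 cells and fell by 1.35 (SE 0.23). Klf6 fell by 1.86 (SE 0.24), Fosl1 by 1.05 (SE 0.34) and Ier2 by 1.0 (SE 0.15). The fall of Fosl1 came mostly from the pair with Cxcl12, at -1.91 there against -0.19 without it. The member that rose was Myc, at 2.0 and 3.68 in wild type and 2.87 and 4.2 in N78 cells (0.69, SE 0.16, adjusted p = 0.00363). Among 9 tested feedback genes of the MAP kinase pathway, the phosphatase Dusp4 (1.11), Etv5 (1.25) and Spred2 (0.87) rose, Phlda1 fell by 1.78 (SE 0.23) and Spry2 by 0.77, and 4 did not pass. Their median of 0.04 turned to -0.14 once each chromosome was centred on its own median.

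Nearly all genes of ribosome production were raised. Of 30 MYC targets and ribosome biogenesis genes, all tested, 29 rose and none fell, with a median of 0.97, against 17.3% of all genes higher. Gnl3, the nucleolar GTPase nucleostemin (chromosome 14, 31826877 to 31826936), read 0.82 and 0.85 in wild type and 2.21 and 2.73 in N78 cells and rose by 1.64 (SE 0.18, adjusted p = 1.18e-05), or 3.11-fold. Mybbp1a, a nucleolar protein, rose by 1.56 (SE 0.16), spermidine synthase (Srm) by 1.55 (SE 0.15), Rrp12 by 1.36 (SE 0.20) and the nucleolar phosphoprotein Nolc1 by 1.34 (SE 0.16). Nop14 alone did not pass, at 0.23 (SE 0.17). The median was 0.99 in the pair without Cxcl12 and 0.82 in the pair with it. It ranged from 0.74 to 1.58 over the alternatives run.

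The promoters of these genes are shown by 1 example, since MYC binds the E-box CACGTG. RefSeq start sites of GRCm38.p6 matched 24 of the 30 genes, and CACGTG, which reads the same on both strands, lay in the 250 bases before the start of 1 of them, Nop2 (4.17%), against 6.86% of all genes. The window around it, at chr6:125131783-125131868 on the + strand, has the motif in capitals.
Nop2: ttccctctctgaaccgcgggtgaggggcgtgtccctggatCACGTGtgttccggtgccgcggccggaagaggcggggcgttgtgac
The STAT motif TTCNNNGAA, also the same on both strands and with no overlap to the E-box, lay in that window in 2 of the 24 ribosome genes and in 1 of 11 matched STAT5 targets, Socs3, against 8.13% of all genes. That site, at chr11:117969472-117969560 on the - strand, is printed with the motif in capitals because Socs3 is a member that did not pass.
Socs3: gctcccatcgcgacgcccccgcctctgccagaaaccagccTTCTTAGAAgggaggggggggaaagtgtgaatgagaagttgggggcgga

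Many genes of nucleotide and cholesterol synthesis were also raised. Of 19 nucleotide synthesis genes, 15 rose and none fell, with a median of 0.75, where 17.3% of all genes tested rose and 16.2% fell. The same shares apply to the other lists named here. Gart, a purine synthesis enzyme, rose by 1.48 (SE 0.17), Dhodh of pyrimidine synthesis by 1.32 (SE 0.17), Shmt1 by 1.18, Nme1 by 1.11 and Umps by 0.92. Of 23 tested cholesterol synthesis and uptake genes, 14 rose and none fell, with a median of 0.64. The largest rises were in synthesis enzymes, with Fdps at 1.35 (SE 0.18), Idi1 at 1.24, Dhcr7 at 1.18, Nsdhl at 1.17 and Fdft1 at 1.13. The regulator Insig1, at 0.04, did not pass. Of 14 polyamine and methionine cycle genes, 6 rose and 1 fell, with a median of 0.37. Beside Srm, adenosylhomocysteinase (Ahcy) rose by 0.97, Mtap by 0.49 and Smox, spermine oxidase, was at least 1.91-fold higher, while Sat1, which starts polyamine breakdown, fell by 1.21 (SE 0.17).

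Of 23 tested ATF4 and amino acid response genes, 8 rose and 1 fell, with a median of 0.28, beside 17.3% and 16.2% of all genes tested. Nupr1 rose by 2.06 (SE 0.34), with 1 of 2 wild type arrays above background, the proline enzyme Pycr1 by 1.56 (SE 0.26), asparagine synthetase (Asns) by 0.97 and the serine enzymes Phgdh and Shmt2 by 0.89 and 0.84. Among 24 tested glycolysis and hypoxia genes, 8 rose and 1 fell, beside the same shares. Their median of 0.32 came from the pair with Cxcl12, at 0.60 there against -0.03 without it. Ddit4, a stress gene, read 6.97 and 4.00 in wild type and 6.96 and 5.61 in N78 cells, and Slc2a3, a glucose transporter, 5.08 and 3.07 against 5.27 and 4.44. Both were lower with Cxcl12, less so in N78 cells. Ldha rose by 0.65 (SE 0.14) and Pdk1 by 1.28 (SE 0.24).

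Of 29 G1/S and DNA replication genes, 7 rose and 1 fell, with a median of 0.22, and of 28 G2/M and mitosis genes, 8 rose and 1 fell, with a median of 0.13. Over all genes tested, 17.3% rose and 16.2% fell. The G1/S members Gins2 (0.91), Cdc6 (0.86), Ccne1 (0.70) and Tk1 (0.68) rose and E2f2 fell by 0.63. Cdk1 rose by 0.72 (SE 0.17), Aurkb by 0.71, Bub1b by 0.69, Ccnb1 by 0.64 and Tpx2 by 0.53. Birc5, survivin, was at 0.17 (SE 0.14, adjusted p = 0.361), Mki67 at -0.26 and Ccna2 at -0.27, and these did not pass. Of 16 tested p53 targets, 3 rose and 1 fell. The nuclease Aen rose by 1.30 (SE 0.16), the death gene Bax by 1.01 (SE 0.16) and Ccng1 by 0.94, while the death receptor Fas fell by 0.86 (SE 0.19). The p53 median was 0.01 and that of 16 tested BCL2 and IAP genes 0.04, and both changed sign under 7 of 22 alternatives.

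Survival genes moved both ways. Of the 16 BCL2 and IAP genes, 3 rose and 6 fell, where 17.3% of all genes tested rose and 16.2% fell. Bcl2l1, Bax and Bcl2 (0.70, SE 0.15) rose, though 2 of 3 Bcl2 probes had the opposite sign. A pair of promoters of cell death fell, Bmf by 1.14 (SE 0.33, with 1 of 2 N78 arrays above background) and Bcl2l11, which encodes Bim, by 0.85 (SE 0.18), with 1 of 2 Bcl2l11 probes of opposite sign. Among other named genes that passed, 1 probe also had the opposite sign for Cflar, Dnaja1, Myb, Sesn3, Slc2a3, Spry2 and Syvn1. Of 15 tested FOXO targets, 4 fell and 1 rose, beside the same shares, with a median of -0.26 that turned to 0.09 under the background correction with debris spots. Trib1 fell by 1.95 (SE 0.45), Sesn3 by 1.36 (SE 0.30), Bcl2l11 by 0.85 and Rbl2 by 0.72, while mitochondrial superoxide dismutase (Sod2) rose by 0.99 (SE 0.14).

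Integrins changed in both directions. Of 18 tested adhesion genes, 6 rose and 5 fell, with a median of 0.23, where 17.3% of all genes tested rose and 16.2% fell. Itga4, the alpha 4 chain of VLA-4 (chromosome 2, 79170690 to 79170749), read 4.29 and 4.28 in wild type and 1.85 and 1.66 in N78 cells and fell by 2.53 (SE 0.16, adjusted p = 3.37e-08), or 5.76-fold, with all 6 of its kept probes lower. Itga1 was at least 7.67-fold lower. Itga6 rose by 1.65 (SE 0.31) and Itgal, the LFA-1 alpha chain, by 1.04 (SE 0.18). Among 24 tested genes of CXCR4 signalling and migration, 7 fell and none rose, beside the same shares, with a median of -0.14 that turned to 0.03 with arrays centred on their medians. Cxcr4 itself read 2.75 and 2.31 in wild type and 2.05 and 2.02 in N78 cells and fell by 0.49 (SE 0.17, adjusted p = 0.0329). The G protein regulator Rgs2 fell by 1.21 (SE 0.18), Pik3r5 by 0.71, Rock2 by 0.60, the G protein Gnai2 by 0.53 and Rock1 by 0.50.

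Of 20 tested haematopoietic transcription factors, 8 fell and 2 rose, with a median of -0.04 that turned to 0.14 with arrays centred on their medians. Of all genes tested, 16.2% fell and 17.3% rose. Runx2 read -0.67 and -0.43 in wild type and -2.64 and -3.01 in N78 cells and fell by 2.28 (SE 0.24, adjusted p = 8.88e-06). Myb fell by 0.91 (SE 0.14), Id2 by 0.90 and Gata2, a factor of mast cells and progenitors, by 0.73 (SE 0.15). Runx1 rose by 0.53 (SE 0.19, adjusted p = 0.0414). Gata1 (-0.06) and Spi1 (0.31) did not pass. Of 20 tested interferon-stimulated genes, 5 rose and none fell, with a median of 0.32, a count near the share of all genes that rose. Of these 5, Usp18 entered the test through the N78 arrays alone. Ifi35 rose by 1.48 (SE 0.19), Isg20 by 1.08, Psmb8 by 0.85 and Bst2 by 0.70, and Usp18 was at least 1.28-fold higher. Of 16 tested NF-kB targets, 6 rose and 2 fell, with a median of 0.26. The chemokine Ccl5 rose by 1.89 (SE 0.32), Relb by 1.78 (SE 0.19) and Nfkbia by 0.66, and Nfkbiz fell by 1.1 (SE 0.23) and Cflar by 0.69.

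Stress and lipid mediator genes were mixed. Beside 17.3% of all genes tested that rose and 16.2% that fell, 5 of 18 unfolded protein response genes rose and 4 fell, with Sdf2l1 at 0.94 and the chaperone Hspa5 at 0.79, and Dnajb9 lower by 0.91 and Edem1 and Syvn1 each by 0.72. Their median of 0.15 was -0.09 in the pair without Cxcl12, and changed sign under 5 of 22 alternatives. Of 9 tested heat shock genes, the mitochondrial chaperonins Hspd1 (0.86) and Hspe1 (0.72) and Dnaja1 (0.73) rose and Dnajb1 fell by 0.79, with a median of 0.18 that turned to -0.01 with quantile normalization. Dnajb1 was at -1.44 in the pair without Cxcl12 and -0.14 in the pair with it. Of 7 tested genes of leukotriene, prostaglandin and histamine synthesis, 3 rose and 2 fell, with a median of 0.41. Alox5, the 5-lipoxygenase, rose by 2.16 (SE 0.27, adjusted p = 4.52e-05), from -3.11 and -3.96 to -1.29 and -1.46, and Pla2g4a by 1.0 and Lta4h by 0.55. Its partner Alox5ap fell by 0.45 and histidine decarboxylase (Hdc) by 0.55.

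The differences between N78 and wild type were not spread evenly over the chromosomes. This was noticed in the data, and the chromosomes named here were chosen after their values were seen, so it is a description with no test. Of 11951 named genes tested on chromosomes 1 to 19 and X, those on chromosome 2 (968 genes) had a median difference of 0.28, and 71.1% of them were above 0. The medians were 0.23 on chromosome 1 (68.8% above 0), 0.22 on chromosome 11 (66.3%) and 0.18 on chromosome 14 (62.7%). Smaller positive medians stood on chromosomes 7 (0.12), 16 (0.11) and 8 (0.08). On the other 13 chromosomes the medians lay between -0.14 and -0.01. The pairs gave nearly the same values, at 0.30 and 0.28 on chromosome 2 and 0.24 and 0.24 on chromosome 1 without and with Cxcl12. On chromosome 2, 32.6% of genes rose and 6.20% fell, where 17.3% and 16.2% of all genes tested did.

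The shift was alike in both parts of some chromosomes and unlike in others. The genes of each chromosome were divided at their median probe position. Those before it on chromosome 2 had a median of 0.27 and those after it 0.29, and on chromosome 11 the medians were 0.22 and 0.21. On chromosome 16 they were 0.23 before it and -0.01 after it. The same 2 medians were 0.27 and 0.20 on chromosome 1, 0.22 and 0.13 on 14, 0.06 and 0.20 on 7, and 0.06 and 0.11 on 8. Medians of 2 parts do not show that a shift covers a whole chromosome. Over the alternatives run other than chromosome centring, the median of chromosome 2 lay 0.22 to 0.32 above that of all genes, and that of chromosome 1 0.17 to 0.28 above. N51 against wild type on the first slide had no such shift, with medians of -0.01 on chromosome 2, -0.02 on chromosome 1, 0.01 on chromosome 11 and -0.02 on chromosome 14, and between -0.12 and 0.07 on all 20 chromosomes. With each chromosome centred on its median, 4194 genes passed instead of 4737, and the ribosome list kept a median of 0.85. Whether the lines differ in chromosome number was not tested.

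**Figure D4:**
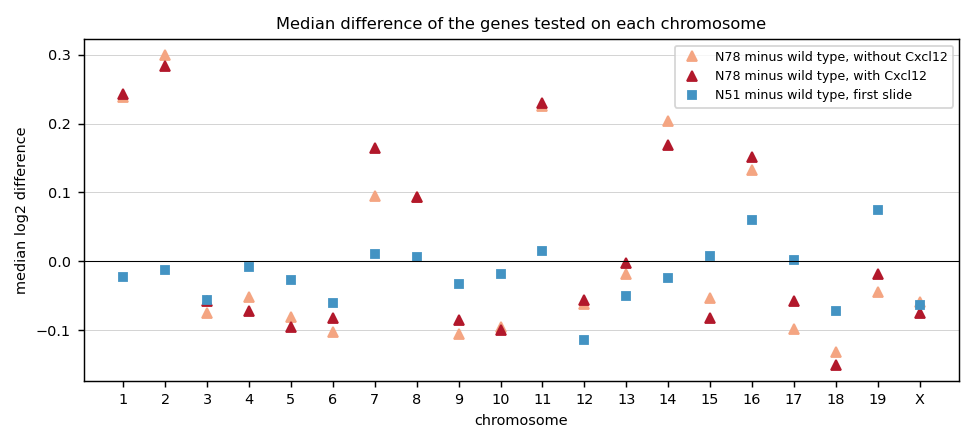
Median log2 difference of the genes tested on each chromosome. Light and dark red triangles are N78 minus wild type on the second slide without and with Cxcl12, and blue squares are N51 minus wild type on the first slide. The triangles stand at 0.30 and 0.28 on chromosome 2, while the squares stay between -0.12 and 0.07 on every chromosome.

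The N78 difference was then set against the N51 difference of the first slide, where each duplication has its own wild type arrays. Each duplication is on its own slide, so the duplication and the slide cannot be told apart. Of 14668 genes, 117 passed the test of the difference between the 2 differences (adjusted p under 0.05, limma), which is 0.798%, with 48 higher and 69 lower in N78 and 2414 at an unadjusted p under 0.05. The count rests on single arrays and on the filter: it was 4 without the filter on dim probes, 6 without either first slide wild type array, 15 and 39 without the second slide ones, 8 and 10 without an N78 array and 710 without N51. In 74 of the 117 the N78 and N51 differences had opposite signs. For 17 of them neither side of the second slide was above background on both arrays, so that the result rests on the first slide. In simulated data, with 100 of 14668 genes changed at each size, this test recovered 0% of 2-fold and 39% of 4-fold changes. Most genes that did not pass may therefore still differ.

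Most leading genes of the N78 signature went the same way in N51 cells, and several differed less there. All 15 leading higher and 13 of 15 leading lower genes had the same sign in N51, where 63.4% of all 14668 genes did. The N51 medians of the leading higher and lower genes were 2.58 and -1.83. The test of the difference passed for 5 of the higher and 6 of the lower genes. Lpgat1, counted as the same sign, and AU018091, counted as opposite, were above background on no first slide array, so their N51 direction was not measured. Mcpt8 was at -3.92 and Clec7a at -4.02 in N51 cells, and the mast cell and basophil list had an N51 median of -1.67. The genes were picked by the size of their N78 difference, which by itself favours a smaller N51 value. Lpgat1 was at least 14.4-fold higher in N78 cells and was above background on no N51 or first slide wild type array. Lgals3 rose by 5.23 in N78 and differed by 1.51 in N51 cells (adjusted p of the difference 0.0145). F13a1 fell by 5.01 in N78 and differed by -1.19 in N51 cells (adjusted p of the difference 0.000294), Ank3 fell by 4.16 against -1.48 (0.0105) and Ctsg fell by 6.14 against -3.52 (0.0364).

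Some genes of blood cells went opposite ways. Gzmb fell by 2.98 in N78 cells and was 1.91 higher in N51 than in wild type cells. It read 0.79 and 1.54 in wild type and -1.78 and -1.85 in N78 cells on the second slide, and 2.75 and 3.15 in wild type and 4.87 and 4.86 in N51 cells on the first. Myct1, a nuclear protein of blood progenitors, fell by 2.21 in N78 (0.27 and 0.55 to -1.57 and -2.04) and was 3.34 higher in N51 (-2.43 and -3.10 to 0.68 and 0.47). Its wild type levels thus differed between the slides as well. Ddc, DOPA decarboxylase, was at least 2.62-fold lower in N78 and 1.90 higher in N51 cells, and Il10ra was 2.87 higher there. Mpo and Epx were 0.59 and 0.48 higher in N78 cells and 4.04 and 3.88 lower in N51 than in wild type cells, and Anxa3 was 0.57 lower against 4.58 lower. Ifitm6 was at least 9.72-fold higher in N78 cells and differed by -0.51 in N51 cells. For Rbp2, Fsd1 and Mmp8 the second slide wild type and N78 arrays were all below background, while the first slide wild type arrays were above it, so N78 differences of these genes were not measured. Pf4, 5.22 higher in N51 than in wild type cells, and Cped1, above background on the N51 arrays only, were likewise below background on the second slide.

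**Figure D5:**
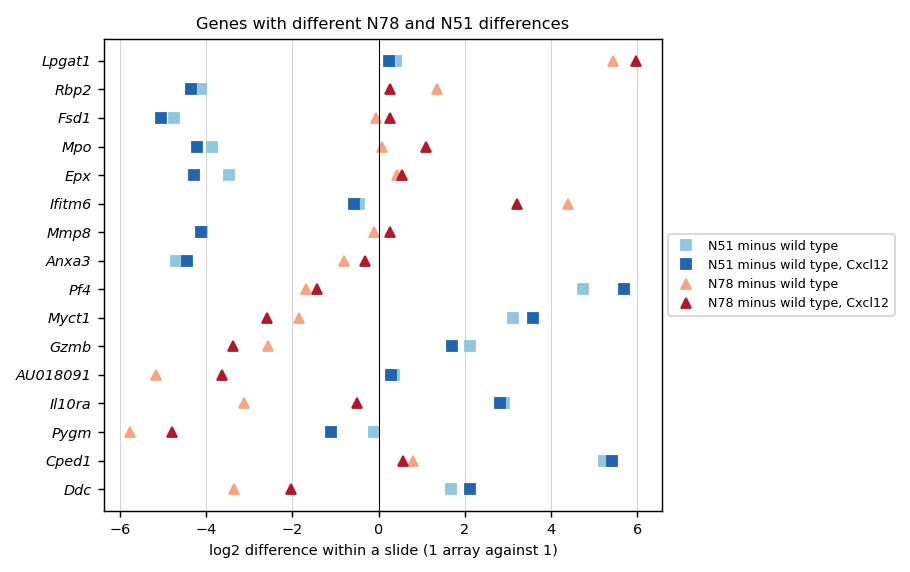
Log2 difference between an ITD array and the wild type array of the same slide and Cxcl12 state for the 16 genes with the largest N78 minus N51 differences that passed; red triangles are N78 and blue squares N51, light without and dark with Cxcl12. Gzmb and Myct1 have triangles to the left of 0 and squares to the right, and the triangles of Fsd1, Mmp8 and Pf4 are from arrays below background.

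For the STAT5 targets the N78 differences were smaller in size than those of N51 for Socs1 (0.73 against 3.20), Cish (0.66 against 2.31) and Pim1 (1.84 against 3.11), but the tests of these differences gave adjusted p of 0.0646, 0.264 and 0.126 (limma), which did not pass. None of the 13 tested STAT5 targets, 30 ribosome genes or 17 immediate-early genes passed that test, where 0.798% of all genes did. Cxcr4 was at -0.49 in N78 and -1.70 in N51 cells (adjusted p of the difference 0.165). Itga4 stood at -2.53 and -2.40 (adjusted p of the difference 0.948), with a difference of -0.12 (SE 0.65) between them.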

How the data were processed

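Total RNA of Ba/F3 cells was labelled with Cy3 and hybridised to Agilent mouse arrays, 1 array per sample. The deposited intensity of each spot is, per the file headers, background-subtracted and corrected within its array by Agilent Feature Extraction (version 10.7.3.1 on the second slide, 9.5.1.1 on the first), with no scaling between arrays. The authors' normalized table holds intensities relative to the median of each array, and log2 of them was taken here. These log2 values lay within 0.05 of the median-centred log2 intensities for 99.9% of probes on each second slide array. The authors' table was used as an alternative. Foreground and local background intensity columns, as deposited, entered only the normexp alternatives.

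Here log2 was taken of the processed intensity and the array's 75th percentile (367 to 600.0 on the second slide) subtracted. Outlier spots were dropped and the spots of each probe averaged. Probes entered the test when both wild type or both N78 arrays called them well above background, and the brightest kept probe stood for its gene, leaving 14129 genes from 21617 probes. Of these, 12036 have a gene name, found by accession, symbol or synonym in RefSeq tables, or from the file; unnamed ones are counted and not named. Coordinates are probe positions in mm9 from the files. Exon or UTR positions were not used here.

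N78 was tested against wild type with limma 3.58.1 (R 4.3.3), with Cxcl12 as block, an intensity trend and Benjamini-Hochberg adjustment; 1 residual degree of freedom was moderated by a prior of 14.4. "Rose" and "fell" are used of adjusted p under 0.05. The counts include genes that were not above background on both arrays of the dimmer group. Among them are Clec7a, S100a9, Nupr1, Ear6, Il10ra, Bmf, Itga1, Lyz1 and Smox. These entered the test through the brighter group alone, so their direction is no support. N78 minus N51 used all 8 arrays, with 4 means and a shared Cxcl12 term. The number of arrays limits the precision. In simulated data, with 100 of 14129 genes changed at each size, the first test recovered 71% of 2-fold and 100% of 4-fold changes. It called 9 unchanged genes. In the real data 33.5% of genes passed, a far larger share, so 9 is no estimate of the false calls among the 4737.

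The genes studied and the 30 lists were chosen with earlier results of these data known. Named genes were up to 15 higher and 15 lower genes by size that passed in the same direction in both pairs and were detected on both arrays of the brighter group, 8 and 8 likewise for N78 minus N51 (there, of the group with the highest mean), up to 5 passing and 3 other members of each list, and 19 always named. Of those always named and tested, all are given. A few genes that the rule selects, among them 1 leading gene, are not reported here.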

Additional observations from a re-analysis of the deposited data

Results flagged for a closer look

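The results below stood out because the N78 and N51 differences from wild type differed by a test of the difference itself (limma, all 8 arrays). In all, 117 genes passed. Each duplication is on its own slide, so the duplication and the slide cannot be told apart. Values are the N78 difference minus the N51 difference in log2. The higher genes were Lpgat1 at 5.38 (SE 0.57), Rbp2 at 5.04 (SE 0.67), Fsd1 at 5.0 (SE 0.63), Mpo at 4.63 (SE 0.60), Epx at 4.36 (SE 0.79), Ifitm6 at 4.31 (SE 0.50), Mmp8 at 4.19 (SE 0.72) and Anxa3 at 4.01 (SE 0.41). The lower genes were Pf4 at -6.77 (SE 0.44), Myct1 at -5.55 (SE 0.36), Gzmb at -4.89 (SE 0.32), AU018091 at -4.73 (SE 0.86), Il10ra at -4.68 (SE 0.74), Pygm at -4.68 (SE 0.50), Cped1 at -4.65 (SE 0.56) and Ddc at -4.60 (SE 0.52). All 16 were chosen among genes with the same sign without and with Cxcl12, so that agreement is no support. Neither side of the second slide was above background for Rbp2, Fsd1, Mmp8, Pf4 and Cped1. On that slide Lpgat1 and Ifitm6 were above background on no wild type array, and Pygm, Ddc and AU018091 on no N78 array. The sizes of these 10 differences are therefore not exact and give no order. AU018091 was above background in wild type on the second slide and on no array of the first.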

How the results depend on the processing

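For N78 against wild type, 4737 genes passed in the main test. The count was 2245 with arrays centred on their medians and in the authors' normalized table, with 2129 of the 4737 among them each time. It was 2993 without the intensity trend, with 2798 of the 4737 among them. Without the pairing by Cxcl12 it was 1746, and with normexp it was 38. Once every spot flagged for uneven background was given its array's median background, normexp gave 4755. The wild type array with Cxcl12 on the second slide had 9 such flagged spots, and on it 4 debris spots had a background far above their signal. This alternative, called debris-free below, was chosen after seeing the data, like the chromosome centring. A replicate block over 8 arrays gave 2591; the numbers pair wild type arrays of a slide, and N78 has no second number. Leaving out 1 array in a fit of all 8, where a lone sample is assumed to vary like the other groups, gave 319 to 3971. It gave 385 without wild type replicate 2, 319 without N78, 678 without wild type with Cxcl12 replicate 2, 349 without N78 with Cxcl12, and 2089 and 2086 without the first slide wild type arrays. Genes 2-fold apart in both pairs numbered 1058 at any p, 425 with debris-free normexp and 682 with probes above background on every array. For N78 minus N51, 117 genes became 189 with debris-free normexp, 225 with median centring, 4 without the filter on dim probes, 55 with probes above background on every array and 239 with a Cxcl12 term per slide. Normexp gave 83, with 17 higher and 66 lower. Leaving out 1 array gave 6 to 710: 6 without either first slide wild type array, 710 without N51, 15 and 39 without the second slide wild type arrays, and 8 and 10 without the N78 arrays. Of 30 list medians, 17 kept their sign in all 22 alternatives.

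Directions turned mostly with normexp before the debris spots were treated: Alox5ap 0.34, Ccl5 -0.32, Chil3 0.26, Csf2rb 0.050, Cxcr4 0.22, E2f2 0.14, Etv5 -0.67, Gata2 0.12, Gnai2 0.25, Hdc 0.13, Il3ra 0.017, Itga6 -0.49, Lrrn4 -0.55, Lyz1 -0.62, Mcl1 0.11, Nupr1 -0.50, Ptprc 0.25, Rock1 0.25, S100a9 -0.87, Slain1 -0.61, Slamf1 -0.31, Smox -1.06, Socs1 -0.26, Syvn1 0.069 and Usp18 -1.21. Bcl2 was -0.15 as a mean over probes and Ddit4 -0.010 without the pair with Cxcl12. With an array left out, Epx was -0.21 without N78 and -0.29 without wild type with Cxcl12 replicate 2, Hdc 0.14 without wild type replicate 2, Mpo -0.26 without wild type with Cxcl12 replicate 2 and Prg2 0.051 without N78 with Cxcl12. Beyond the debris spots and the loss of arrays or probes, the cause was not tested. Signals near background limit the sizes of dim genes.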
